A study of Mus musculus with 8 samples.

Results

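Most microRNAs (miRNAs) reach their short mature form by 2 cuts. The Microprocessor, a complex of the nuclease Drosha and its partner DGCR8, releases a hairpin from the primary transcript, and Dicer then cuts the hairpin. A small number of miRNAs skip the first cut. Mirtrons are short introns that splicing itself releases and that fold into a hairpin, and miR-877, miR-1224 and miR-702 are annotated as such in the mouse. The precursors of miR-320 and miR-484 have been described as short capped transcripts that Dicer can cut without the Microprocessor. In cells that lack DGCR8 such miRNAs are among those that remain, so they are often read beside the canonical ones.

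The names studied were chosen with earlier results of these data known. Mouse miR-320, miR-484, miR-877, miR-1224 and miR-702 were taken by name, with or without an arm suffix, detected or not. This gave 6 of the 611 mouse miRNAs on the array, namely miR-484, miR-320-3p, miR-1224-5p, miR-702, miR-877-5p and miR-877-3p. They were measured in C3H10T1/2 cells, a mouse mesenchymal line that can form cartilage cells and responds to hedgehog proteins. IhhN is the signalling fragment of Indian hedgehog, a protein that cartilage cells secrete. The WT group received wild type IhhN and the MT group IhhN with the E95K substitution, each at 750 nM for 48 h, while the control group received no protein according to its description. The labels list 750 nM for the control group as well, and the study's methods state no dose for it. All groups were thus of 1 cell line, with 2 RNA samples each. Every WT RNA was hybridized on 2 arrays and every other RNA on 1, which made 8 one-colour arrays on 1 slide. The methods describe the inductions as run in triplicate, but no source used here ties the RNA samples of these arrays to separate inductions, so the p-values cover only the spread between these samples, which may be technical.

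Between 104 and 150 mouse miRNAs were detected on an array, and no spot was saturated. A miRNA counted as detected when over 50% of the spots of at least 1 of its probes were well above background. The tests covered 142 miRNAs, each detected throughout 1 group or more. Of 7 arms of miRNAs typical of mesenchymal cells, 5 were detected on all 8 arrays and the others on 6 or 7, whereas 0 of 11 arms typical of liver, nerve, blood, muscle, endocrine or epithelial cells were detected on any array. MT replicate 1 and the arrays of WT replicate 1 had the fewest detected miRNAs, from 104 to 117, against at least 143 on every other array. A level here is the mean spot signal of a miRNA's brightest probe, scaled and taken to log2. The scaling made the 75th percentile equal between arrays, taken over 174 probes that no array missed. Values under a floor of 4.08 were set to it. Of the 11 arms typical of other cell types, miR-223-3p of blood cells reached 4.97 although undetected, and the rest stayed at the floor.

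The mature sequences, and the hairpins of Mir484, Mir1224 and Mir877, are shown for their seeds and for the bases at the hairpin ends. They are those of RefSeq on GRCm38.p6, read 5′ to 3′. In a mature sequence the capitals mark bases 2 to 8, the seed that pairs with target mRNAs. In the Mir484 hairpin they mark the mature miRNA, and in the Mir1224 and Mir877 hairpins the GU and AG at the 2 ends.
mmu-miR-484: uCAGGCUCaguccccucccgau
Mir484: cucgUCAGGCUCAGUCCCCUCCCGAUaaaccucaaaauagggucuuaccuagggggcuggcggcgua
mmu-miR-1224-5p: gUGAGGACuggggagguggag
Mir1224: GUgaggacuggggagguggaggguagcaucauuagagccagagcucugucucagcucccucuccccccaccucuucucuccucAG
mmu-miR-877-5p: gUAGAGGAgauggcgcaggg
mmu-miR-877-3p: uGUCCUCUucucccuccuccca
Mir877: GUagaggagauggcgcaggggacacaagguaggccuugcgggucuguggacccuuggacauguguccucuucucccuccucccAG
mmu-miR-702-5p: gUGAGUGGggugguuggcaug
mmu-miR-702-3p: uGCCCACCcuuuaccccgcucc

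GU and AG are the bases at which introns start and end. The hairpins of Mir1224 and Mir877 carried both, as did 30 of the 1005 hairpins in the table, or 2.99%, while those of Mir702 and Mir484 carried neither at their annotated ends. miR-702-5p itself starts with GU, but it begins inside the annotated Mir702 hairpin, which is not printed. Mir1224 lies at chr16:20604452-20604536 on the plus strand, within Vwa5b2. Mir877 lies at chr17:35960730-35960814 on the minus strand, within Abcf1, which encodes a protein that acts in translation. Mir702 lies at chr5:136991433-136991541 on the plus strand, within Plod3, which encodes a lysyl hydroxylase that modifies collagen. Mir484 lies at chr16:14159626-14159692 on the plus strand, within no annotated gene, and its nearest protein-coding genes are Marf1 and Nde1. Whether these stretches are exonic or intronic was not analysed here. The array's name for miR-702 gives no arm, so both arms are shown and its values belong to one that the name does not settle. miR-320 is named only. Of the 4 miRNAs whose array names matched a mature sequence, none shared its seed with another mouse miRNA of the table.

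miR-484, miR-320-3p and miR-1224-5p were detected on all 8 arrays, and miR-702, miR-877-3p and miR-877-5p on only some. miR-702 was detected on 5 arrays, of which 2 of 4 were WT, 1 of 2 MT and 2 of 2 control. miR-877-3p was detected on 4 arrays (2 of 4 WT, 1 of 2 MT and 1 of 2 control), and miR-877-5p on 3 (1 of 4 WT, 0 of 2 MT and 2 of 2 control). None of these 3 was detected on an array of WT replicate 1 or on MT replicate 1, the same arrays on which the fewest miRNAs were detected overall. By the mark that Feature Extraction itself sets per miRNA, each of the 3 was detected on 7 arrays, all but MT replicate 1. A call of absence in the MT group therefore depended on the rule for detection. miR-877-3p did not pass the filter and was not tested. miR-702 and miR-877-5p passed it only through the control group, so counts over the 5 members tested are descriptions.

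**Figure D1:**
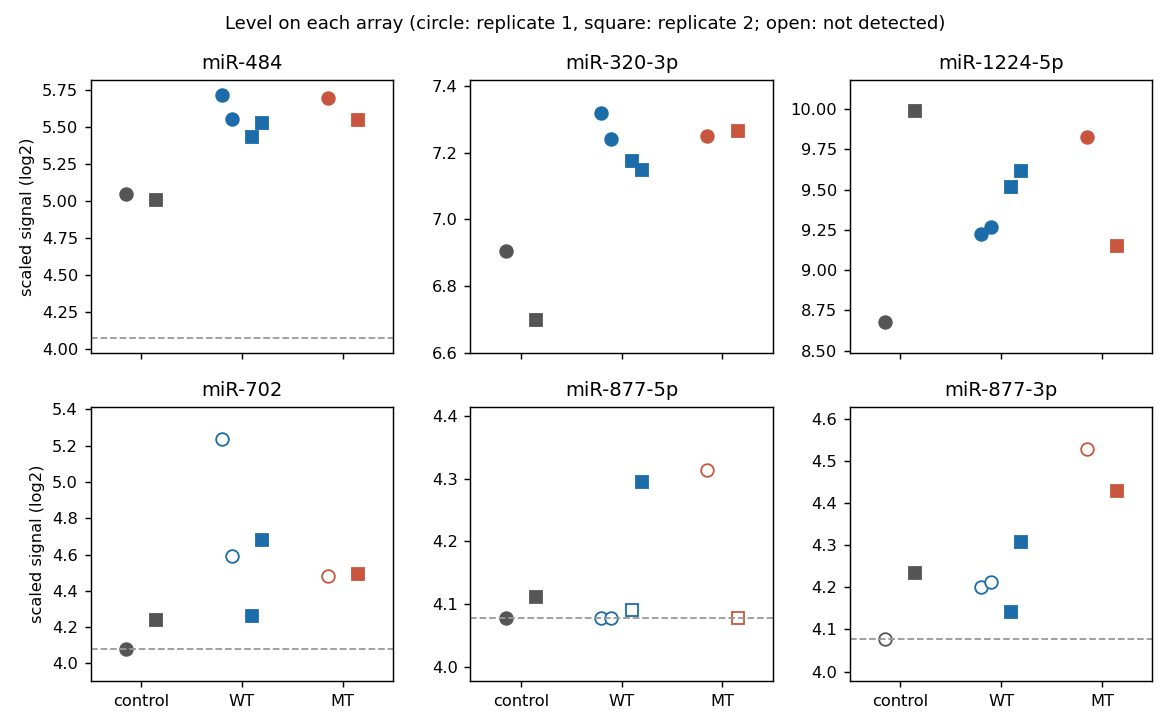
Scaled signal of the 6 miRNAs (y axis, log2) on each of the 8 arrays by group, with circles for replicate 1, squares for replicate 2, open symbols for arrays without detection and a dashed line at the floor of 4.08. For miR-484 and miR-320-3p both control arrays lie below all 6 other arrays, while for miR-1224-5p the control arrays lie at 8.68 and 9.99, outside the range of the others.

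miR-484, which has been described as a repressor of the mitochondrial fission protein Fis1, lay lower in the control group than in both induced groups. Its levels were 5.63 and 5.48 in WT replicates 1 and 2, 5.69 and 5.55 in MT replicates 1 and 2, and 5.05 and 5.01 in control replicates 1 and 2. The group means were 5.55 ± 0.11 in WT, 5.62 ± 0.10 in MT and 5.03 ± 0.03 in control (SD, n = 2 each), and no control sample overlapped a sample of either induced group. The difference of WT from control was 0.53 on the log2 scale, or 1.44-fold, with a standard error of 0.15 and a 95% interval from 0.17 to 0.88, and that of MT from control was 0.59, or 1.51-fold, with an interval from 0.23 to 0.95. Neither passed the threshold after Benjamini-Hochberg adjustment over the 142 miRNAs in limma, with adjusted p = 0.139 for WT and 0.0611 for MT. The second value was the smallest adjusted p of the MT comparison, shared by 19 miRNAs. Both comparisons used the same 2 control samples.

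miR-320-3p had the same order of groups. Its levels were 7.28 and 7.16 in WT, 7.25 and 7.26 in MT, and 6.91 and 6.70 in control, again with no overlap between control and induced samples. In these bulk samples, fewer cells with a miRNA and less of it per cell cannot be told apart. The difference from control was 0.42, or 1.34-fold, in WT (standard error 0.15, 95% interval 0.05 to 0.78, limma adjusted p = 0.140). In MT it was 0.45, or 1.37-fold (95% interval 0.09 to 0.82, limma adjusted p = 0.0890), so it did not pass the threshold in either comparison. Over the 6 RNA samples the levels of miR-320-3p and miR-484 had a Pearson correlation of 0.957. On each array both miRNAs were divided by the same scaling factor, and the factors differed between arrays.

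Those factors moved with the result. Each signal was divided by a factor of 1.51 and 1.17 on the control arrays, the highest of the 8, and of 0.832 to 1.09 on the other arrays. Before scaling, the signal of miR-484 was 50.1 and 37.6 on the control arrays, between 39.2 and 49.5 on the WT arrays, and 44.1 and 38.9 on the MT arrays, so that the groups overlapped. The unscaled signal of miR-320-3p was 181 and 121 on the control arrays, between 121 and 157 on the WT arrays, and 130 and 128 on the MT arrays. Without any scaling, miR-484 differed from control by 0.03 in WT and by -0.07 in MT, and miR-320-3p by -0.07 and -0.20. Those values stood above the median of all 142 miRNAs, which was then -0.32 in WT and -0.50 in MT. With the main scaling that median was 0.11 and 0.13, and with the 75th percentile over all mouse probes it was -0.19 and -0.51. Over all mouse probes that percentile was only 3.70 to 8.05 signal units on an array. Of the 611 mouse miRNAs 449 were detected on no array, so this setting rested mostly on undetected ones.

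Relative to the median of all miRNAs tested, both miRNAs lay higher in the induced groups under every scaling tried. Dividing an array by a factor, however, shifts all its miRNAs alike on the log2 scale. The main, all-probe, median and unscaled settings could thus differ in this distance only through the floor or the brightest probe chosen. Their agreement was fixed in advance, whereas quantile normalization, the total gene signal and normexp could move the distance in other ways. For miR-484 the distance above the median was 0.42 in WT and 0.46 in MT with the main scaling, 0.35 and 0.39 with the percentile over all mouse probes, 0.35 and 0.43 without scaling, and 0.11 and 0.11 after normexp background correction, the smallest. For miR-320-3p it was 0.31 and 0.32 with the main scaling, 0.25 and 0.25 over all mouse probes, 0.25 and 0.29 without scaling, and 0.21 and 0.24 after normexp. Normexp was run with an offset of 50 units added to every spot, against an unscaled signal of 37.6 to 50.1 for miR-484. Such an offset shrinks the log2 differences of dim probes most. That setting also started from the median signal within each spot, set no floor and ended with quantile normalization. Which of these steps moved the distance was not tested. The change of miR-484 from control to MT was -0.12 when scaled over all mouse probes, and that of miR-320-3p was -0.26, so the direction held only as a change relative to the other miRNAs. miR-484 ranked 13 of 142 from the highest difference in WT and 26 in MT, and miR-320-3p ranked 27 and 37.

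**Figure D2:**
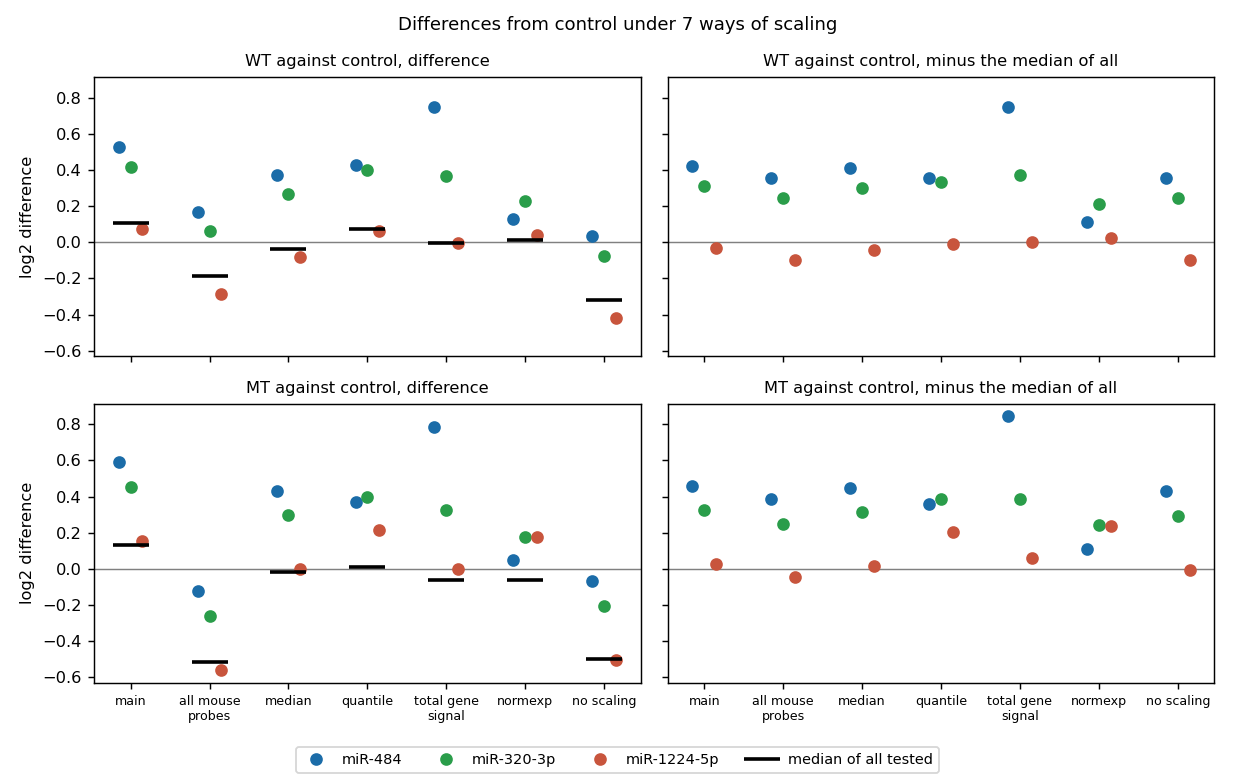
Log2 difference from control (y axis) of miR-484, miR-320-3p and miR-1224-5p under 7 ways of scaling (x axis), with black bars for the median of all miRNAs tested in the left panels and the difference from that median in the right panels. The values of miR-484 and miR-320-3p cross 0 on the left but stay above it on the right, where the lowest is 0.11 for miR-484 after normexp. On the right, settings that only divide each array by a factor agree almost by construction.

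Position on the slide was a second quantity that moved with the groups. WT replicate 1 and both MT arrays lay in the left columns of the slide, and WT replicate 2 and both control arrays in the right columns. Within the right columns, WT replicate 2 exceeded the control mean by 0.45 for miR-484 and by 0.36 for miR-320-3p. Within the left columns, WT replicate 1 differed from the MT mean by 0.01 and 0.02. For both miRNAs WT replicate 1 exceeded WT replicate 2, by 0.16 and 0.12, and no column held both MT and control arrays. With the side of the slide in the model, MT against control was 0.43 for miR-484 and 0.34 for miR-320-3p (limma adjusted p = 0.945 for both), against 0.59 and 0.45 without it. That comparison has no value within either side.

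Each of these miRNAs had a second, dimmer probe. The second probe of miR-320-3p differed from control by 0.45 in WT and 0.51 in MT, close to the brighter probe. The second probe of miR-484 stood at the floor in both control samples and was not detected on 5 of the 8 arrays. It was also at the floor on 1 WT array and undetected on 3 of 4 WT arrays and 1 of 2 MT arrays, so no difference was read from it.

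**Figure D3:**
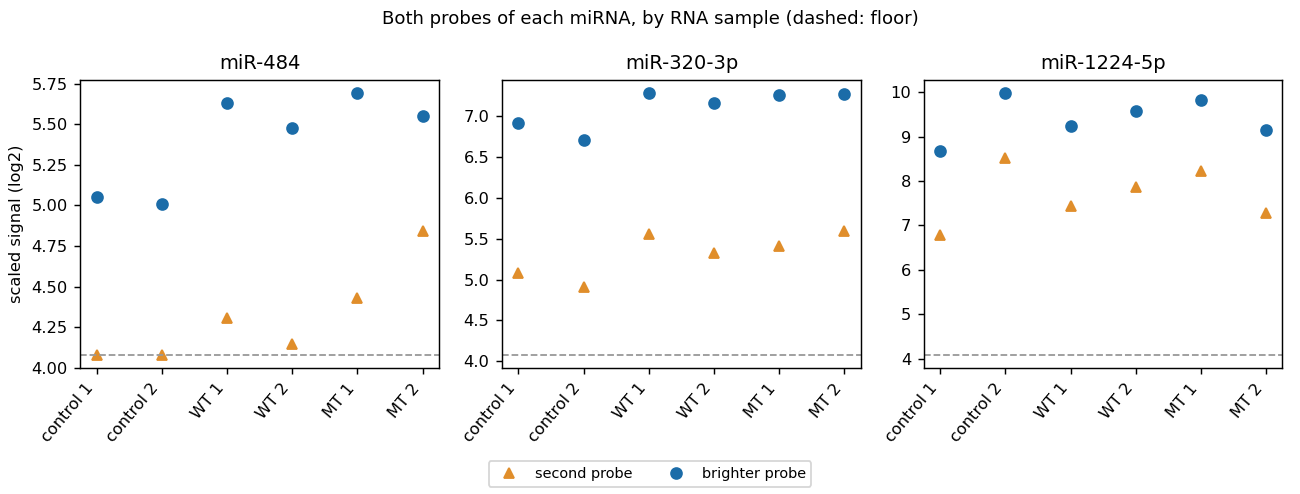
Scaled signal (y axis, log2) of the brighter probe (circles) and the second probe (triangles) of 3 miRNAs in the 6 RNA samples, with a dashed line at the floor. Both probes of miR-320-3p lie lowest in the control samples, the second probe of miR-484 lies at the floor there, and both probes of miR-1224-5p are lowest in control replicate 1 and highest in control replicate 2.

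miR-1224-5p, a mirtron, was bright on all arrays, and its largest difference lay within the control group. Its levels were 9.25 and 9.57 in WT, 9.83 and 9.15 in MT, and 8.68 and 9.99 in control. The 2 control samples held the lowest and the highest level of the 6, and control replicate 2 exceeded control replicate 1 by 1.31, or 2.48-fold. Among the 142 miRNAs this was the second largest difference in that direction. In either direction, the size of the difference had a median of 0.20 and reached 1.86. The unscaled signal was 620 and 1185 on the control arrays. Its difference from control was 0.07 in WT (95% interval -0.94 to 1.09, limma adjusted p = 0.920) and 0.16 in MT (-0.86 to 1.17, adjusted p = 0.782). With 2 samples a group, any difference within these intervals remained compatible with the data. Without control replicate 1 the difference was -0.58 in WT and -0.50 in MT, and without WT replicate 2 it was -0.09 in WT and without MT replicate 1 it was -0.18 in MT. The sign thus turned with single samples of every group.

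miR-702 lay near the floor. Its levels were 4.92 and 4.47 in WT, 4.48 and 4.49 in MT, and 4.08 and 4.24 in control, the first control value being the floor itself. It was undetected on both arrays of WT replicate 1, although they gave 5.24 and 4.59, the first being its highest level. The spots of the array at 5.24 varied by 48.2%, the most of any array for this probe. The difference from control was 0.54 in WT (95% interval 0.09 to 0.98, limma adjusted p = 0.139) and 0.33 in MT (-0.12 to 0.77, adjusted p = 0.219). The value in WT was 0.31 without WT replicate 1, 0.08 after normexp, 0.16 without scaling and 1.57 with the total gene signal that Feature Extraction writes per miRNA. That total gene signal was 370 on array 1 of WT replicate 1, against 25.8 to 27.2 on the other WT arrays. Before scaling its signal was 21.7 and 22.0 on the control arrays, inside the range of 18.7 to 35.6 of all 8.

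Both arms of miR-877 also lay near the floor. miR-877-5p lay at 4.08 and 4.19 in WT, 4.31 and 4.08 in MT, and 4.08 and 4.11 in control, and it gave no fold because its values stood at or near the floor. It did not pass the test in any comparison (lowest limma adjusted p = 0.667, MT against control). miR-877-3p lay at 4.21 and 4.22 in WT, 4.53 and 4.43 in MT, and 4.08 and 4.23 in control. The higher of the 2 MT values came from the array on which it was not detected, so no level was read from it. Levels of different miRNAs were not set against each other, since probes differ in brightness.

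Of the 5 members tested, 5 had a higher mean in WT than in control, as did 61.3% of all miRNAs tested, but miR-1224-5p did so by only 0.07 and miR-877-5p at the floor. The samples of miR-484, miR-320-3p and miR-702, 3 of the 5, had both WT levels above both control levels, and the higher WT level of miR-702 came from arrays on which it was not detected. Such a separation in this direction held for 39.4% of all miRNAs tested, and the opposite one for 25.4%. In MT the same 3 members separated from control, against 40.8% of all. At an unadjusted p under 0.05, 3 of the 5 were higher in WT, with 28.2% of all miRNAs past it, 17.6% higher and 10.6% lower, and 2 of the 5, miR-484 and miR-320-3p, were higher in MT, with 26.8% higher and 12.7% lower. After adjustment limma called 0 of the 5 members and 0 of the 142 miRNAs in either comparison, so percent called was 0 in both, although 40 and 56 miRNAs had an unadjusted p under 0.05. The median difference over the 5 members was 0.42 in WT and 0.33 in MT, against 0.11 and 0.13 over all miRNAs tested. The member medians are the values of miR-320-3p in WT and of miR-702, which lay near the floor, in MT.

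**Figure D4:**
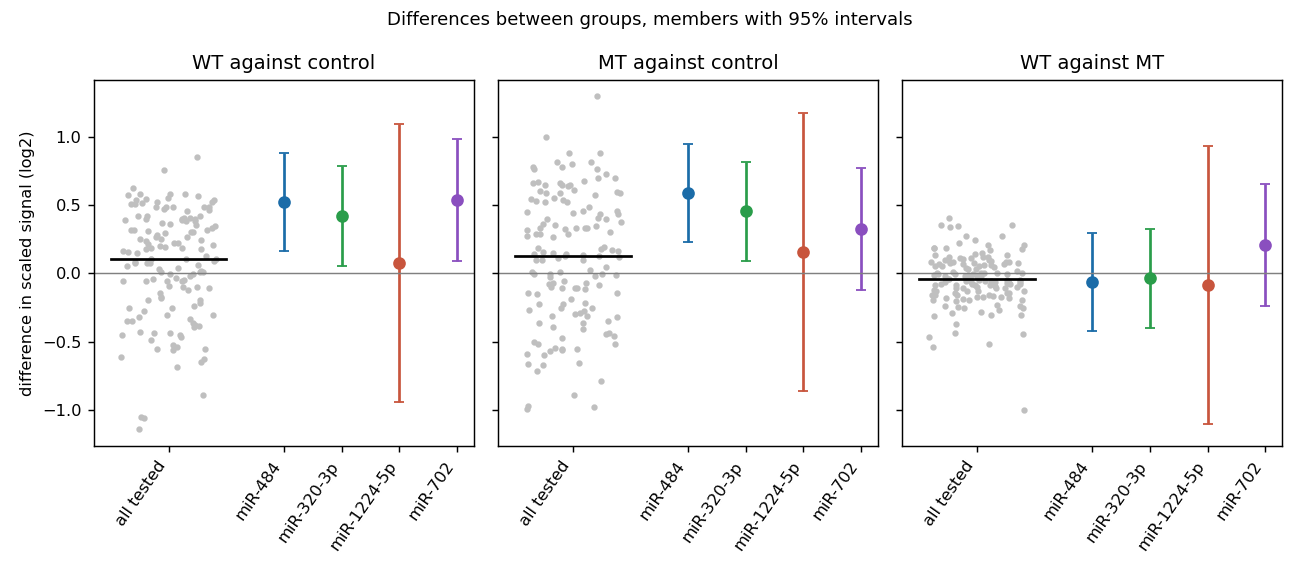
Difference in scaled signal (y axis, log2) between groups for all 142 miRNAs tested (grey points, with a bar at their median) and for 4 members with their 95% intervals, in the 3 comparisons. The points of miR-484 and miR-320-3p lie in the upper part of the grey cloud against control and near 0 for WT against MT, and the interval of miR-1224-5p is the widest in each panel.

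The comparison of WT with MT asks whether the E95K substitution altered the response. miR-484 differed by -0.07 (95% interval -0.42 to 0.29), miR-320-3p by -0.04 (-0.40 to 0.33) and miR-702 by 0.21 (-0.24 to 0.66), each with a limma adjusted p of 0.990. miR-1224-5p differed by -0.08 (-1.10 to 0.94, adjusted p = 1). The WT and MT samples of each of these 4 miRNAs overlapped, against 8.45% of all miRNAs with both WT samples higher and 17.6% with both lower, and 0 of 142 miRNAs were called, also at an unadjusted p under 0.05. Each interval holds values on both sides of 0 and does not show that the 2 proteins acted alike.

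The miRNAs with the most similar pattern to each member were sought among the 103 detected on all 8 arrays, by the Pearson correlation over the 6 RNA samples. For miR-484 they were miR-34b-3p (0.984), miR-99b-5p (0.984), miR-199b-5p (0.983), miR-193b-3p (0.980) and miR-199a-5p (0.968). For miR-320-3p they were miR-125a-5p (0.984), miR-199b-5p (0.984), miR-25-3p (0.979), let-7d-5p (0.978) and miR-296-5p (0.974). In all of these the control samples were the lowest, which the choice by correlation fixes. With scaling over all mouse probes, 2 of the 5 names for miR-484 and 3 of the 5 for miR-320-3p were found again.

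miR-1224-5p had other neighbours. They were miR-1895 (0.995), miR-689, listed as miR-689_v15.0 (0.989), miR-351-5p (0.819), miR-503-5p (0.801) and miR-98-5p (0.713), of which 4 were found again with the other scaling. Its correlation was 0.124 with miR-484 and -0.157 with miR-320-3p. miR-1895 also split the control samples, with 5.29 in replicate 1 and 6.59 in replicate 2, and so did miR-503-5p with 5.80 and 7.14. The 3 members detected on all arrays did not share 1 pattern over these samples.

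**Figure D5:**
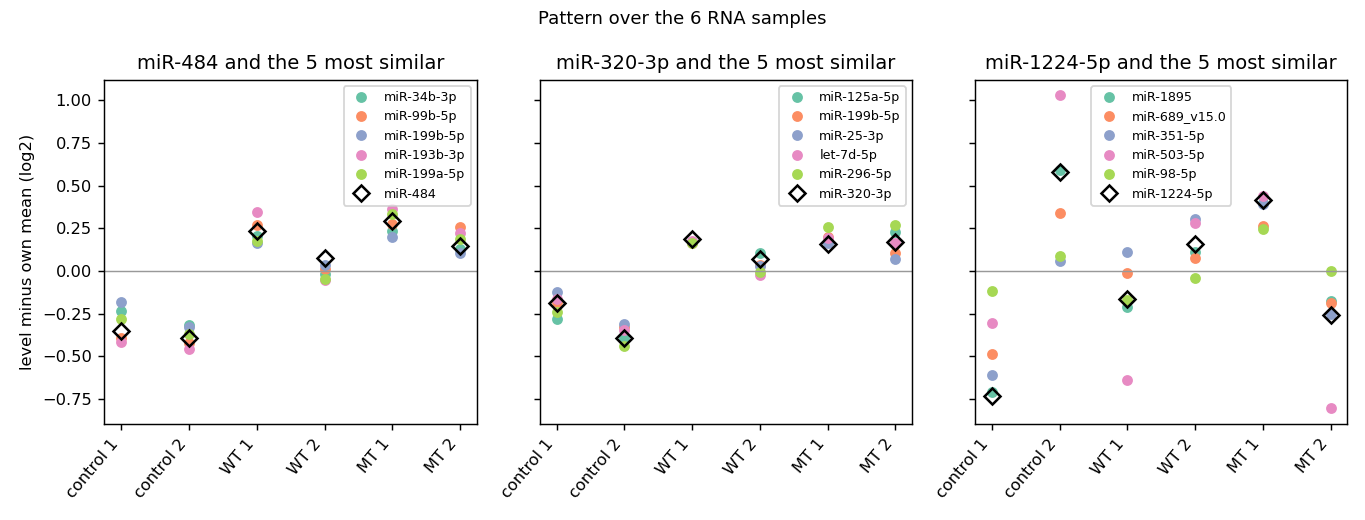
Level minus its own mean (y axis, log2) in the 6 RNA samples for miR-484, miR-320-3p and miR-1224-5p (diamonds) and the 5 miRNAs most similar to each (coloured points). In the first 2 panels both control samples lie below the rest, while miR-1224-5p and miR-1895 lie lowest in control replicate 1 and highest in control replicate 2.

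The list of other miRNAs described with an unusual route held 9 names, such as miR-451, which Argonaute 2 cuts in place of Dicer. Of these, 7 arms were on the array, 6 were detected on no array, and none could be tested. miR-712-5p was detected on 1 array, control replicate 1, by 1 probe with an unscaled signal of 18.3. miR-451, abundant in red blood cells, was among the undetected.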

How the data were processed

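miRNA levels were measured in 6 RNA samples of C3H10T1/2 cells on 8 Agilent arrays with 13715 spots each. The authors deposited scanner files with an intensity per spot, background-subtracted and detrended by Feature Extraction (10.7.1.1 per the file headers, 9.1 in the submitters' processing notes), with marks per spot (other), and a series table whose intensity values equal the background-subtracted ones within 0.5 units. Any normalization between arrays by the authors is one not given in the sources used here. Spots marked as outliers were dropped, the spots of a probe averaged, arrays scaled to their 75th percentile over 174 probes that no array missed, values floored at 4.08 and log2 taken. The brightest probe stood for a miRNA, and the 2 arrays of a WT RNA were averaged. All groups were fitted together in limma 3.58.1 (R 4.3.3), with 3 residual degrees of freedom and Benjamini-Hochberg adjustment at 0.05, without a replicate block. The fit was tested on simulated data. The number of arrays limits the precision.

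Named were all 6 miRNAs found by name, the 5 most similar to each one detected on all arrays, the detected miRNAs of the list of unusual routes and any with a shared seed. The members and lists were chosen with earlier results of these data known. The alternatives covered scaling, normexp (offset 50, no floor, then quantile normalization), floor, filter, probes, signal column, arrays, blocks and leaving out replicates. The crossed block and the omission of scaling were chosen after seeing the data. Sequences are from RefSeq, GRCm38.p6. Of the array's names, 476 matched a mature sequence.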

Additional observations from a re-analysis of the deposited data

How the results depend on the processing

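With 2 samples a group, calls moved with the settings. limma called 0 miRNAs in each comparison, but for WT against control 1 with 0.5 times the floor, 3 with the total gene signal and 28 without scaling. For MT against control it called 1 with 0.5 times the floor, 3 with the total gene signal, 11 with a random block for each RNA, 1 without a filter, 12 after normexp, 29 among the miRNAs detected on all 8 arrays, 46 without scaling, and 0 to 18 with 1 replicate left out, the highest without MT replicate 2. For WT against MT, leaving out a replicate gave 0 to 1. miR-484 passed in MT against control (0.59) among miRNAs detected on all 8 arrays, at a limma adjusted p of 0.0362, and with a crossed pairing at 0.0479. That pairing was chosen from the spread in these same data, so its lower p is no separate support. Across the alternatives the limma adjusted p ranged from 0.0362 to 0.945. The share of all miRNAs higher than control was 61.3% in WT and 57.7% in MT with the main scaling, 29.6% and 10.6% over all mouse probes, 49.4% and 47.0% with the total gene signal, 50.7% and 40.1% after normexp, 47.9% and 47.2% with the median, 57.0% and 51.4% after quantile normalization, and 12.0% and 13.4% without scaling. For WT above MT it was 37.3% with the main scaling, 92.3% over all mouse probes, 76.8% without scaling, 72.5% after normexp, 56.0% with the total gene signal and 56.3% after quantile normalization. The scaling over all mouse probes rested mostly on undetected miRNAs, as given above.

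Signs turned as follows. For miR-1224-5p, WT against control gave -0.28 over all mouse probes, -0.0043 with the total gene signal, -0.0792 with the median, -0.42 without scaling and -0.58 to 0.73 with 1 replicate left out. MT against control gave -0.56, -0.0018 with the median, -0.50 without scaling and -0.50 to 0.81. WT against MT gave 0.27 over all mouse probes, 0.0835 without scaling and -0.42 to 0.26. For miR-320-3p, WT against control gave -0.0738 without scaling, MT against control -0.26 over all mouse probes and -0.20 without scaling. WT against MT gave 0.32 over all mouse probes, 0.0421 with the total gene signal, 0.13 without scaling, 0.0476 after normexp, 0.0020 after quantile normalization, 0.0233 with the slide side in the model and -0.0951 to 0.0233. For miR-484, MT against control gave -0.12 over all mouse probes and -0.0671 without scaling. WT against MT gave 0.29 over all mouse probes, 0.10 without scaling, 0.0798 after normexp, 0.0543 after quantile normalization, 0.0129 with the side and -0.14 to 0.0129. For miR-702, MT against control gave -0.13 with the total gene signal, -0.21 without scaling, -0.0218 after normexp and -0.12 with the side, and WT against MT gave -0.0133 to 0.43. The cause was not tested. WT against control kept its direction for miR-484 in all 25 alternatives, from 0.03 to 0.75. Many of these could not move the estimate of 0.53, such as the lower floor, the filters, the blocks and leaving out an MT replicate. The slide side in the model and the omission of WT replicate 1 gave the same value, 0.45. The 25 are therefore not separate checks.

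The deviations of same-numbered samples had correlations over 142 miRNAs of 0.02 (WT, MT), 0.39 (WT, control) and -0.46 (MT, control). These differ in sign and do not settle whether the replicate numbers pair the samples. A fit with the replicate block made 0 calls per comparison and left miR-484 at 0.53 in WT and 0.59 in MT. The negative value prompted a crossed pairing, which called 26 miRNAs in MT against control and 0 in the other comparisons. When the slide side entered the model, unadjusted p fell under 0.05 for 0 miRNAs in MT against control and 4 in WT against control.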

Other observations

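miR-1224-5p and miR-877-5p were rich in guanine. G made up 61.9% of miR-1224-5p, the highest share of the 118 tested miRNAs with a mature sequence, and 55% of miR-877-5p, against 18.2% of miR-484 and a median of 25.5%. G and C together made up 66.7%, 65% and 63.6% of the 3 miRNAs, against a median of 47.6%.

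The total gene signal that Feature Extraction writes per miRNA departed from the probe signals on single arrays. For miR-877-3p it was 5233 on array 1 of WT replicate 1 and 11786 on control replicate 1, where the highest mean signal of any of its probes was 23.9 and 18.4. For miR-877-5p it was 5242 on array 1 of WT replicate 1, where that highest mean was 27.4. For miR-484 it was 119 on that array, against a probe signal of 49.5, and for miR-702 it was 370, against 35.6. For miR-702, miR-877-3p and miR-877-5p it was 0.1 on MT replicate 1.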
